A study of Mus musculus with 8 samples.

Results

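The 9 genes described here encode parts of the junction that fastens the epidermis to the dermis: the laminin chains Lama3 and Lamb3, the integrin subunits Itga3, Itga6 and Itgb4, the collagens Col17a1 and Col7a1, and the plakins Dst and Plec. They were taken by gene symbol, and all 9 were found among the 19126 genes of the deposited table. The family was selected on an earlier result of the same comparison, in which Lama3 was among the genes with the smallest p between inhibitor and vehicle ears, so the difference between the groups is given below as a description. RNA came from the left ears of 8 C57BL/6 mice aged 6 to 8 weeks with a contact allergy to DNFB (dinitrofluorobenzene, a skin sensitiser). Every mouse first received 25 µL of 0.3% DNFB, and from day 6 its left ear received 10 µL of 0.25% DNFB. The inhibitor group of 4 mice then had intraperitoneal MMP-9-IN-1 at 10 mg/kg, a compound that blocks the secreted protease MMP-9. The vehicle group of 4 mice had the same volume of the solvent, made of 10% DMSO, 40% PEG300 and 50% PBS. The procedure ran for 4 days before the ears were taken, and both groups carried the DNFB allergy, so no ear was free of the sensitiser. The tissue is whole ear, with epidermis, dermis, cartilage, muscle, vessels and nerve together.

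Basal keratinocytes hold on to the basement membrane through hemidesmosomes. Laminin-332, a trimer that holds the α3 and β3 chains, lies in the basement membrane and is bound by the integrin α6β4 in hemidesmosomes and by the integrin α3β1 outside them. Inside the cell, plectin and BP230, the epidermal product of Dst, tie α6β4 and the transmembrane collagen XVII to keratin filaments of Krt5 and Krt14. Collagen VII, made by keratinocytes and fibroblasts, forms the anchoring fibrils that reach from laminin-332 into the dermis. In people, inherited loss of these proteins is known for blistering of the skin, and skin wounds are known for a strong supply of laminin-332 from migrating keratinocytes.

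From the RefSeq set of promoter windows, on build GRCm38.p6, 8 windows were kept for 5 of the 9 genes: Lamb3, Itga3, Col17a1, Col7a1 and Dst. None was kept for Lama3, Itga6, Itgb4 and Plec. The member windows of a single chromosome were left out, so a missing window does not show that RefSeq has none. A window runs from 250 bases before to 50 bases after an annotated transcript start. Shown here, 5′ to 3′ on the strand of the gene, are the start of the laminin chain Lamb3, of Itga3, whose level varied most on the log2 scale together with Itgb4, and of the most and the least abundant members, Col17a1 and Col7a1. Capitals mark the GC box GGGCGG and the TATA box TATAAA, searched on both strands.
Lamb3 (chr1:193301744-193302043, plus strand): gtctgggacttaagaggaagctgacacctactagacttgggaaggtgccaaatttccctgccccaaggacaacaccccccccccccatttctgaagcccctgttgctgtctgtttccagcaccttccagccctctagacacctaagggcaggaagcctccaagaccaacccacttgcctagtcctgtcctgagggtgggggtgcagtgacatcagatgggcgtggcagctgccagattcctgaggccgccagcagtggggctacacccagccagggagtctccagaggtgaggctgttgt
Itga3 (chr11:95076665-95076964, minus strand): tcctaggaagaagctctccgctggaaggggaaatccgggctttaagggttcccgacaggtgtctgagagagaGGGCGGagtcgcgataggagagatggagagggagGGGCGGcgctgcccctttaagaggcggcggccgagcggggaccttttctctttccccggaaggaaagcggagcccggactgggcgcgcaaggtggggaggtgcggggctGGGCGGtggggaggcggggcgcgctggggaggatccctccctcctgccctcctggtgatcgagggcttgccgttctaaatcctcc
Col17a1 (chr19:47691993-47692292, minus strand): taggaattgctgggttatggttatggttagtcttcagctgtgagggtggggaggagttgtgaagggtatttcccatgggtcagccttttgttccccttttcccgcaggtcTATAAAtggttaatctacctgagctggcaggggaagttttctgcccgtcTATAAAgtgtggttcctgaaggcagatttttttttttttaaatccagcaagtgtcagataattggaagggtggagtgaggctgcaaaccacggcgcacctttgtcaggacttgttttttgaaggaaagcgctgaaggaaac
Col7a1 (chr9:108953336-108953635, plus strand): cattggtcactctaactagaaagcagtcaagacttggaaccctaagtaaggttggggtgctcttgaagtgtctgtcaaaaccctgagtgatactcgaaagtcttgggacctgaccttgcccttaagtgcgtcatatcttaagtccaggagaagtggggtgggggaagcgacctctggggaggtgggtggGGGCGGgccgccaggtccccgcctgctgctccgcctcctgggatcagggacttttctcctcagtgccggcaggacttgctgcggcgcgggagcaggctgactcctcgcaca

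The windows differed in composition. The Itga3 window had 66.7% G and C and 3 GC boxes, and the Col17a1 window had 46.3% G and C and 2 TATA boxes, 140 and 91 bases before the start by the first base of each match. Over the 8 member windows kept, a GC box was found in 4 and a TATA box in 1. Of all 32851 windows in the table, 35.7% held a GC box and 13.6% a TATA box. The AP-1 motif TGANTCA was in 1 of the 8 windows, a second start of Itga3, against 7.81% of all windows, and the AP-2 motif GCCNNNGGC was in 0 of the 8, against 16.6%. None of these motifs was found in the Lamb3 window shown. A match is a string of letters and no evidence of a bound factor.

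Library totals were between 13863145 and 18512200 counted reads, and the lowest member count in any library was 310 reads, for Col7a1. All 9 members passed the filter on low counts. Over the whole table, vehicle ears 1 and 2 stood apart from vehicle ears 3 and 4: the chi-square of their counts, divided by its degrees of freedom, was 243 to 289 between them and 30.6 and 22.8 within. By this measure the inhibitor ears parted less clearly. Mice 1 and 2 gave 91.1 and mice 3 and 4 gave 43.1. Mouse 1 gave 76.0 with mouse 3 and 137 with mouse 4, and mouse 2 gave 113 and 128. Gene by gene, ears 1 and 2 of both groups lay all below ears 3 and 4 in CPM for 19.5% of genes tested. They lay all above for 18.4%. The labels do not say what a shared number marks. Summed over 8 neutrophil markers, levels were 30805, 35505, 4230 and 3536 TPM (transcript abundance per gene length, scaled to a fixed total) in vehicle mice 1 to 4 and 3512, 23441, 3090 and 3785 TPM in inhibitor mice 1 to 4. The 7 basal keratinocyte markers summed to 11512, 10198, 25192 and 23095 TPM in vehicle mice 1 to 4 and to 21358, 15565, 23263 and 14971 TPM in inhibitor mice 1 to 4. Their leading genes Krt14 and Krt5 were abundant in every ear with at least 5974 and 2947 TPM. Most of each neutrophil sum came from S100a8 and S100a9, which also serve here as activated keratinocyte markers. They had 10341 and 15604 TPM in vehicle mouse 1 and 1882 and 1411 TPM in inhibitor mouse 1. In whole tissue, fewer cells of a type and less RNA per cell cannot be told apart.

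The 9 transcripts spanned a wide range of levels, in an order that changed from ear to ear in its middle part. Col17a1 led with a mean over the 8 ears of 233 ± 67.2 TPM (SD, n = 8) and was above Itgb4 in 8 of 8 ears. Itgb4 (80.0 ± 47.5 TPM), Itga6 (78.2 ± 17.5 TPM) and Itga3 (73.0 ± 39.8 TPM) came next. These neighbours did not differ beyond their spread, with Itgb4 above Itga6 in 3 of 8 ears and Itga6 above Itga3 in 5 of 8. Plec (49.3 ± 11.3 TPM) and Dst (47.1 ± 22.4 TPM) also could not be ranked, with Plec the higher in 4 of 8 ears. Lamb3 had 39.8 ± 4.44 TPM and lay below Dst in only 4 of 8 ears. Lama3, at 18.1 ± 2.89 TPM, was below Lamb3 in 8 of 8 ears, and Col7a1, at 7.07 ± 3.00 TPM, was below Lama3 in 8 of 8.

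**Figure D1:**
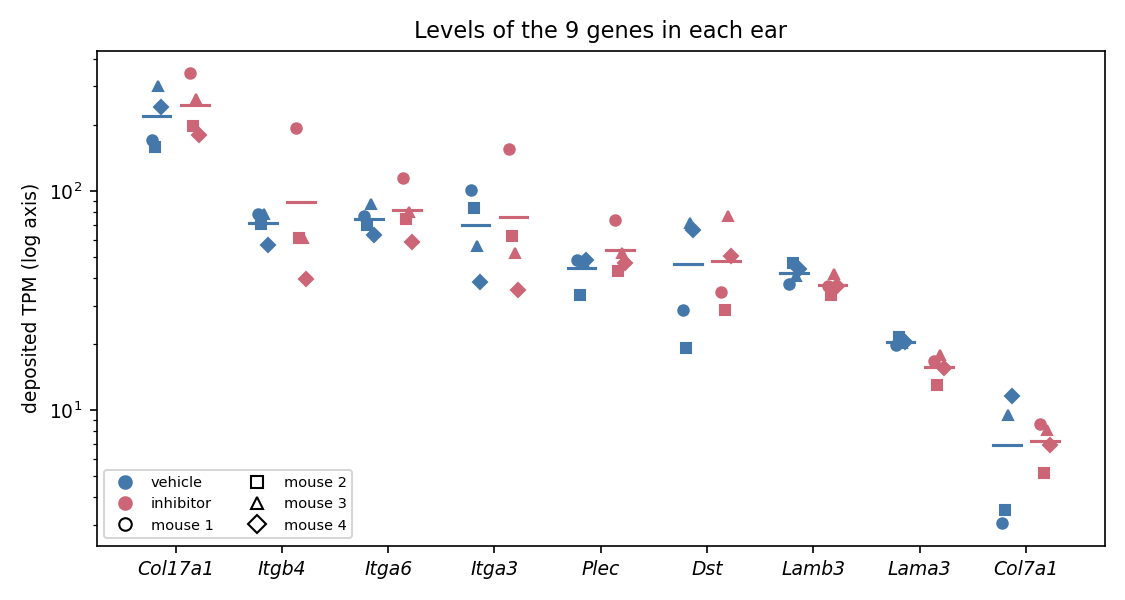
Deposited TPM (log axis) of the 9 genes in each of the 8 ears, with colour for the group, symbol for the mouse number and a bar for the group mean. Col17a1 is highest, between 159 and 345 TPM, and Lama3 is the gene whose 4 inhibitor ears all lie below the 4 vehicle ears.

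The laminin chain Lama3 was lower in every inhibitor ear than in any vehicle ear. In CPM, which are counts scaled to library size with TMM factors, the vehicle ears 1 to 4 had 81.1, 100.5, 66.1 and 65.9 and the inhibitor ears 1 to 4 had 55.4, 49.2, 58.7 and 51.3. The groups did not overlap, and the highest vehicle values were those of mice 1 and 2. In TPM the vehicle ears were much closer together, at 19.8, 21.6, 20.2 and 20.4, and the inhibitor ears had 16.8, 13.0, 17.8 and 15.7, again without overlap. The vehicle mean was thus 1.30 times the inhibitor mean in TPM. The edgeR estimate over all 8 ears was a log2 fold change of -0.55 (SE 0.16, 95% interval -0.92 to -0.18). Fitted to mice 1 and 2 alone it was -0.80, and to mice 3 and 4 alone -0.28. Since the family was chosen with this difference known, it supports nothing by itself.

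Lamb3, the β3 chain of the same trimer, followed Lama3 more closely than any other member did. The vehicle ears 1 to 4 had 110.9, 156.9, 94.0 and 101.6 CPM, and the inhibitor ears 1 to 4 had 86.6, 90.8, 97.9 and 85.8 CPM. The groups overlapped, because inhibitor mouse 3 lay above vehicle mouse 3, and vehicle mouse 2 was the highest ear. The estimate was -0.36 (SE 0.18, interval -0.76 to 0.04), at -0.60 for mice 1 and 2 alone, -0.11 for mice 3 and 4 alone, and -0.20 without vehicle replicate 2. Centred on their own means, the log2 CPM profiles of Lama3 and Lamb3 differed by a root mean square of 0.13 over the 8 ears, the smallest distance among the 36 pairs of members. The ratio of Lamb3 to Lama3 in TPM stayed between 1.90 and 2.57.

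**Figure D2:**
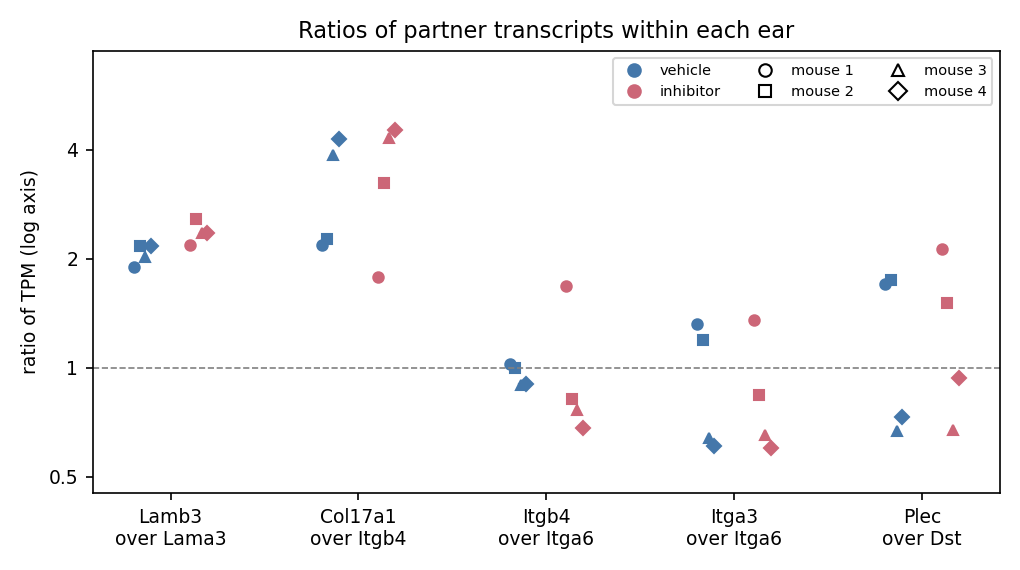
Ratios of TPM between partner genes within each ear (log axis), with colour for the group and symbol for the mouse number. Lamb3 over Lama3 stays between 1.90 and 2.57, a span of 1.36 times, while Plec over Dst runs from 0.669 to 2.13 and is higher in mice 1 and 2 than in mice 3 and 4 of both groups.

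Of the integrin subunits, Itga3 and Itgb4 varied most from ear to ear, and neither separated the groups. Itga3 encodes the α3 subunit, a laminin-332 receptor subunit outside hemidesmosomes. It had 101, 83.7, 55.9 and 38.4 TPM in vehicle mice 1 to 4 and 155, 62.5, 52.0 and 35.3 TPM in inhibitor mice 1 to 4. Within both groups the ears of mice 1 and 2 were above those of mice 3 and 4, in TPM and in CPM. Ly6g, 1 of the 8 neutrophil markers, had 89.0, 72.0, 1.56 and 3.34 TPM in vehicle ears 1 to 4. In inhibitor ears 1 to 4 it had 9.27, 30.3, 2.13 and 2.48 TPM, so it was also higher in mice 1 and 2 of each group. Other markers of that list went otherwise in the inhibitor ears. There S100a9 had 1411, 12755, 998 and 1723 TPM in mice 1 to 4, and S100a8 had 1882, 8629, 2001 and 1883 TPM. The sum of the 8 neutrophil markers, mostly S100a8 and S100a9, was 3512 TPM in inhibitor mouse 1, the highest ear for Itga3. The part of these markers in the Itga3 values was not tested. Its estimate was -0.12 (SE 0.55, interval -1.37 to 1.14) and -0.68 without inhibitor replicate 1.

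Itgb4 encodes the β4 subunit, whose long cytoplasmic tail binds plectin. It had 78.9, 70.4, 78.3 and 56.8 TPM in vehicle mice 1 to 4 and 193, 61.0, 61.1 and 39.9 TPM in inhibitor mice 1 to 4. Inhibitor mouse 1 stood far above all other ears, and the other inhibitor ears lay within or below the vehicle range. The estimate was 0.14 (SE 0.48, interval -0.95 to 1.24), and it was -0.53 without inhibitor replicate 1. Its deposited counts were not whole numbers in 8 of 8 libraries, which makes them uncertain, since how reads were divided is not given.

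Itga6, the α6 partner of β4, was steadier. It had 77.0, 70.3, 87.3 and 63.1 TPM in vehicle mice 1 to 4 and 115, 74.4, 79.9 and 58.6 TPM in inhibitor mice 1 to 4. The groups overlapped, and the lowest ear of each was mouse 4. The estimate was -0.01 (SE 0.24, interval -0.57 to 0.54). Although the proteins pair, their transcripts did not hold a fixed ratio, since Itgb4 over Itga6 was 1.68 in inhibitor mouse 1 and between 0.680 and 1.02 in the other ears. Endothelial cells and nerve sheath cells also use α6. The 7 endothelial markers, all detected, summed to between 127 and 197 TPM in vehicle ears and 115 and 255 TPM in inhibitor ears, and their part in the Itga6 values was not tested.

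The collagens had no shift between the groups that stood out from the spread. Col17a1 encodes the transmembrane collagen of the hemidesmosome (BP180). It had 172, 159, 303 and 243 TPM in vehicle mice 1 to 4 and 345, 197, 263 and 181 TPM in inhibitor mice 1 to 4. In TPM the vehicle ears of mice 1 and 2 were the lowest of all, the inhibitor ear of mouse 1 was the highest, and the groups overlapped. In CPM the lowest ear was inhibitor mouse 4 with 580.8, against 693.3 and 728.5 in vehicle mice 1 and 2. The estimate was 0.06 (SE 0.22, interval -0.45 to 0.57), at 0.38 for mice 1 and 2 alone and -0.29 for mice 3 and 4 alone.

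Col7a1, the anchoring fibril gene, had 3.05, 3.50, 9.54 and 11.6 TPM in vehicle mice 1 to 4 and 8.63, 5.17, 8.13 and 6.96 TPM in inhibitor mice 1 to 4. Vehicle mice 1 and 2 were below every inhibitor ear, and vehicle mice 3 and 4 were above every inhibitor ear. The 2 group means, 6.93 ± 4.30 TPM with vehicle and 7.22 ± 1.54 TPM with the inhibitor (SD, n = 4), were therefore close while the vehicle spread was wide. The estimate was 0.01 (SE 0.34, interval -0.77 to 0.79), at 0.73 for mice 1 and 2 alone and -0.48 for mice 3 and 4 alone. The difference between those values was not tested.

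The plakins went different ways across the ears. Dst, whose epidermal product BP230 joins keratin to the hemidesmosome, had 28.6, 19.2, 71.7 and 66.5 TPM in vehicle mice 1 to 4 and 34.4, 28.6, 77.3 and 50.4 TPM in inhibitor mice 1 to 4. Mice 1 and 2 were below mice 3 and 4 in both groups with no overlap, and the treatment groups overlapped. The estimate was -0.04 (SE 0.33, interval -0.79 to 0.72). Dst also has nerve and muscle products, and reads of its isoforms are counted together here. Its counts were not whole numbers in 8 of 8 libraries and are uncertain in the same way. The 7 Schwann cell markers, none at 0, summed to 129 and 136 TPM in vehicle mice 1 and 2 against 230.4 and 354 TPM in vehicle mice 3 and 4, and to 111 and 116 TPM against 297 and 290.3 TPM in the inhibitor ears. Their part in the Dst values was not tested.

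Plec, which encodes plectin, had 48.5, 33.4, 48.0 and 48.7 TPM in vehicle mice 1 to 4 and 73.5, 43.3, 52.0 and 47.1 TPM in inhibitor mice 1 to 4. Inhibitor mouse 1 was the highest ear, and the groups overlapped. Vehicle mouse 2 was the lowest in TPM, while in CPM it had 416.0 and inhibitor mouse 4 was the lowest with 409.4. The estimate was 0.13 (SE 0.19, interval -0.30 to 0.57) and -0.03 without inhibitor replicate 1. Its counts were not whole in 4 of 8 libraries. The ratio of Plec to Dst was between 1.51 and 2.13 in the 4 ears of mice 1 and 2 and between 0.669 and 0.934 in the 4 ears of mice 3 and 4. Skeletal muscle also makes plectin, and the 8 muscle markers, none at 0, summed to between 334 and 1947 TPM in vehicle ears and between 432 and 4060 TPM in inhibitor ears. Their part in the Plec values was not tested.

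**Figure D3:**
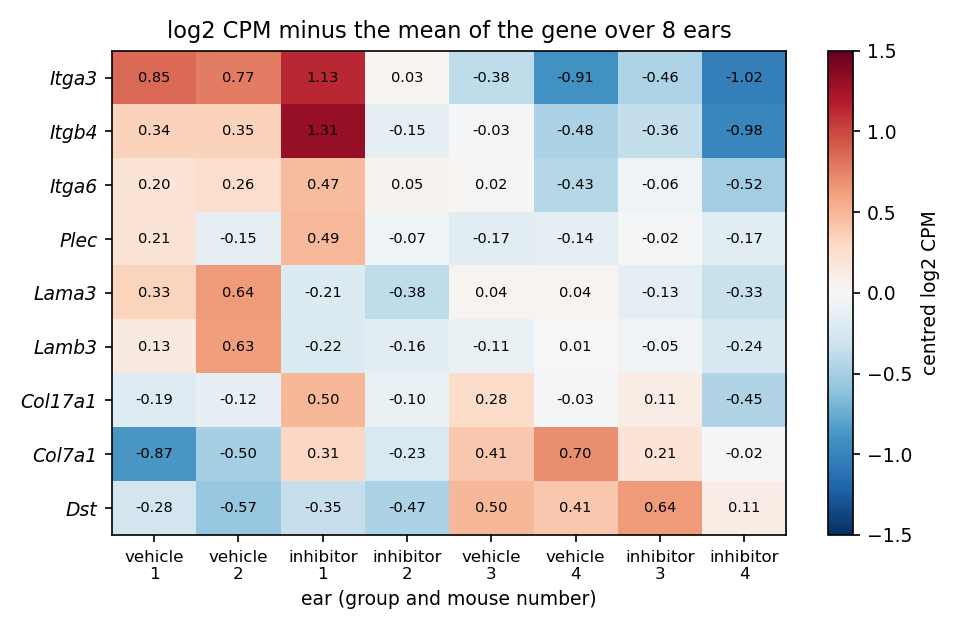
Heat map of log2 CPM of each gene minus its mean over the 8 ears, with the ears of mice 1 and 2 on the left and those of mice 3 and 4 on the right. Itga3 runs from 1.13 in inhibitor mouse 1 to -1.02 in inhibitor mouse 4, Dst runs the other way, and the profiles of Lama3 and Lamb3 are nearly alike.

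Across the family, 5 members had a lower and 4 a higher estimate with the inhibitor, and their median log2 fold change was -0.01 beside 0.026 over all genes tested. Scaled by total counts alone, which moves the median of all genes to 0.121, 2 members, Lama3 and Lamb3, had a lower estimate and 7 a higher one, with a member median of 0.061. In edgeR's quasi-likelihood test 0 of the 9 passed a Benjamini-Hochberg adjusted p of 0.05, as did 0% of the 15096 genes tested, and the adjusted p of each member was 0.999. Without adjustment, 157 genes had a p under 0.05, with 1 member, Lama3, among them, and DESeq2 and limma-voom with quality weights also called 0 genes, with 293 and 296 at that level. All 4 inhibitor ears lay below all 4 vehicle ears in CPM for 1 of the 9 members, Lama3, and for 0.457% of the genes tested. No reading is drawn from that count, since Lama3 drew attention to the family. By mouse number, 2 of the 9, Itga3 and Itga6, had the ears of mice 1 and 2 all above those of mice 3 and 4 in CPM, where 18.4% of all genes did. Dst alone had them all below, where 19.5% of all genes did. These shares do not set the family apart from the table as a whole, and in TPM the Itga6 ears overlapped.

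**Figure D4:**
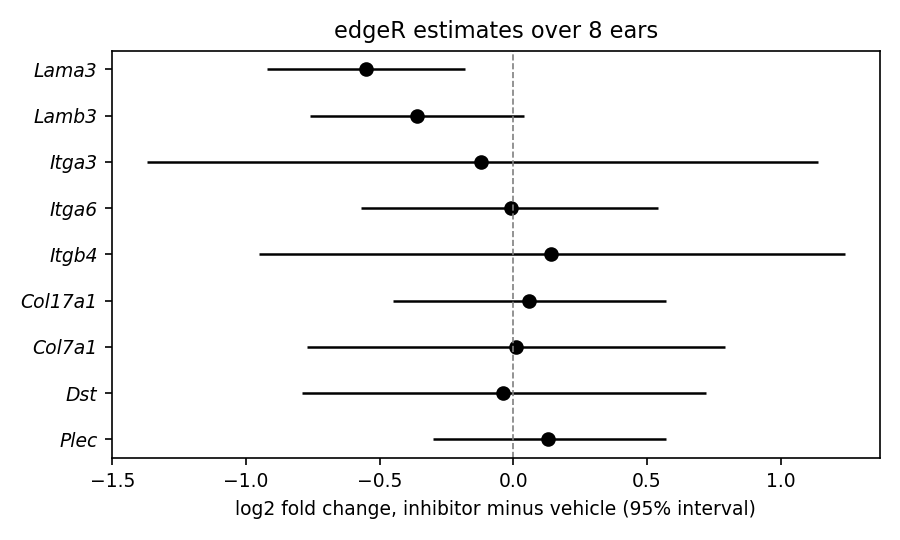
edgeR log2 fold changes of inhibitor minus vehicle over 8 ears, with bars for the 95% interval of each gene taken alone. Lama3 is at -0.55 and Lamb3 at -0.36, and the other 7 genes lie between -0.12 and 0.14 with wide intervals, Itga3 and Itgb4 the widest.

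Set against the basal keratinocyte markers of the same ear, the separation of Lama3 was lost. Its log2 CPM minus the mean log2 CPM of the 7 markers was -2.23, -2.35, -3.61 and -3.35 in vehicle mice 1 to 4 and -3.86, -3.58, -3.60 and -3.17 in inhibitor mice 1 to 4. Vehicle mice 1 and 2 were the highest, and vehicle mice 3 and 4 lay among the inhibitor ears. The means were -2.89 ± 0.70 with vehicle and -3.55 ± 0.29 with the inhibitor (SD, n = 4, log2). On this scale Col17a1 varied least of the 9, with a range of 0.66 log2 units between ears, and Itga3 most, with 2.58. For Col7a1 the range fell from 1.57 in log2 CPM to 0.81 relative to the basal markers, and for Lama3 it rose from 1.03 to 1.63. These ranges lean on Krt15, which spanned 26.1 times in CPM over the ears, where Krt14 spanned 1.67 times. Without Krt15, an alternative added after seeing the data, the range was 0.21 for Col17a1, 1.94 for Itga3, 1.39 for Col7a1 and 1.28 for Lama3, whose groups again overlapped. The markers of this list are RNA levels, so a change in their own expression and a change in the number of basal cells cannot be told apart.

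Other genes of the basement membrane zone gave no call. Of 25 listed and tested, 11 had a higher and 14 a lower estimate, 0 passed, and the median log2 fold change was -0.03. With total counts the split was 14 higher and 11 lower and the median 0.05. Itga2, the α2 collagen receptor subunit, was at -0.41 (SE 0.31). The most abundant were Sparc, a collagen-binding matrix protein gene, at 0.33 (SE 0.58), and Itgb1, the β1 partner of α3, at -0.18 (SE 0.25). Of 14 desmosome and envelope plakin genes, which serve adhesion between keratinocytes, 4 had a higher and 10 a lower estimate, 0 passed, and the median was -0.05. With total counts it was 7 and 7, with a median of 0.02. Among them were the desmosomal cadherin Dsg3 at -0.51 (SE 0.37), the plakophilin Pkp3 at -0.27 (SE 0.23), Perp at -0.01 (SE 0.20) and the plakoglobin gene Jup at -0.18 (SE 0.22). Of the 7 basal keratinocyte markers 3 had a higher and 4 a lower estimate, 0 passed, and the median was -0.04, with Krt5 at 0.11 (SE 0.31) and Krt14 at -0.04 (SE 0.24). With total counts 6 were higher and 1 lower, with a median of 0.06.

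Proteases with known substrates in this zone were likewise without a call. Of 13 listed, 11 were tested, 5 with a higher and 6 with a lower estimate, 0 passed, and the median log2 fold change was -0.09. With total counts 6 were higher and 5 lower, with a median of 0.02. Mmp9, the gene of the inhibited enzyme, had 107.5, 98.3, 4.51 and 9.41 TPM in vehicle mice 1 to 4 and 5.40, 52.8, 6.47 and 11.9 TPM in inhibitor mice 1 to 4. It was thus high in vehicle mice 1 and 2 and in inhibitor mouse 2, and an inhibitor of the protein need not alter its transcript. Its estimate was -1.76 (SE 1.23). The plasminogen activator gene Plau had -0.77 (SE 0.46), the stromelysin gene Mmp3 -1.61 (SE 1.70) and the gelatinase gene Mmp2 -0.09 (SE 0.35).

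Markers of other states and cell types differed in their estimates, with 0 calls in each list, and their part in the member values was not tested. Of the 8 suprabasal markers 8 had a lower estimate, with a median of -0.34, and so did 8 of 8 activated keratinocyte markers, with a median of -0.94. The activated list shares S100a8 and S100a9 with the neutrophil list, in which 8 of 8 were lower with a median of -1.32. All 8 muscle markers had a higher estimate, with a median of 1.11. These 4 directions were the same for every marker with DESeq2 size factors and with total counts. The endothelial list had 3 higher and 4 lower estimates with a median of -0.03, and the Schwann cell list 2 higher and 5 lower with a median of -0.14. With total counts the endothelial list had 5 higher and 2 lower (median 0.10) and the Schwann cell list 3 higher and 4 lower (median -0.02). With DESeq2 size factors the Schwann cell list had 1 higher and 6 lower.

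Genes with profiles most like those of the family were sought by the root mean square distance between centred log2 CPM profiles over the 8 ears, a description that favours genes of similar spread. Nearest to Lama3, apart from members, were Zbtb43 (0.113), Sult2b1, a sulfotransferase gene of cholesterol sulfate synthesis (0.125), Gm40469 (0.129), Tmem131 (0.131), the netrin receptor family gene Neo1 (0.136) and Mad2l1bp (0.137), named in addition because Gm40469 is a predicted gene. Sult2b1 had 54.5, 54.6, 57.3 and 58.5 TPM in vehicle mice 1 to 4 and 40.7, 43.9, 51.5 and 45.0 TPM in inhibitor mice 1 to 4. These genes were the closest of 15096 to a profile that separates the groups, so any separation of their own follows from the choice. The groups overlapped for Gm40469, with 4.328 CPM in vehicle mouse 4 and 4.355 CPM in inhibitor mouse 4. Nearest to the mean profile of the other 8 members were Snrpa, a spliceosome gene (0.063), Pold2, a DNA polymerase subunit gene (0.068), Polrmt, the mitochondrial RNA polymerase gene (0.072), and Myo5b (0.073). The mean profile itself ran from 0.46 in inhibitor mouse 1 to -0.41 in inhibitor mouse 4, a range of 0.87 log2 units.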

How the data were processed

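Per the labels' protocols, mRNA of 8 ears was purified on oligo(dT) beads, and the DNBSEQ reads were single-end with 50 bases. HISAT and the GRCm39 build are named in the submitters' processing notes. How reads were counted, whether by strand, and on which annotation is not given in the sources used. The authors deposited expected counts, FPKM and TPM per gene and library. Between 33.7% and 35.3% of the deposited expected counts of a library were not whole within 1e-09, and all were rounded here. Alternatives used the deposited FPKM (per gene length and library size), and levels used the deposited TPM (per gene length, with a fixed total). A further 6 columns of group means were not used. Columns were matched to mice by arm and number. Each mouse is a separate animal by its title, and same-group libraries differed by a chi-square per degree of freedom of 22.8 to 289.

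Genes were kept with filterByExpr (15096), scaled with TMM factors of 0.815 to 1.09 and tested with edgeR 4.0.16 (quasi-likelihood, inhibitor minus vehicle, no covariate, Benjamini-Hochberg over all genes, threshold 0.05), after a check on simulated counts. The biological coefficient of variation was 41.0%. Intervals of estimates use the quantile of the t distribution at the test's degrees of freedom and are not adjusted over genes. Log2 CPM profiles used a prior count of 2. Alternatives used DESeq2 1.42.0, limma 3.58.1, other scalings and filters, the mouse number as a block, subsets of mice and each library left out; adjusted p-values that DESeq2 gave as NA were left as NA. Same-numbered libraries deviated together from their group means, with correlations of 0.397, 0.710, 0.673 and 0.682 for numbers 1 to 4. The main fit, with its SEs and intervals, still treated the samples as unpaired. The number entered only as a block in an alternative. Some unmatched pairs were as close, with 0.554 for vehicle mouse 1 and inhibitor mouse 2 and 0.685 for vehicle mouse 4 and inhibitor mouse 3, so a pairing by number and a division into mice 1 and 2 against 3 and 4 cannot be told apart. Any pairing is read from the data, since the labels name no shared cage, litter or day. The named genes were the members, Mmp9, the 2 genes with the smallest p and the 2 most abundant of each list, and the nearest profiles; some of these are not reported here. For cell type lists the text gives counts and, where a result turns on them, the leading genes. Members and lists were chosen with earlier results of these data known. Promoter sequences are RefSeq's on GRCm38.p6, matched by gene identifier, another build than that of the counts.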

Additional observations from a re-analysis of the deposited data

Results flagged for a closer look

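Plec stood out in vehicle mouse 1, with 535 CPM against 411 to 419 CPM in the other vehicle ears. The gap to the nearest ear was 0.933 of the range of the group, above the Dixon limit for 4 samples. It was the 1 case among the 18 groups of 4 examined, and chance flags about 1 in 20. In TPM the same ear had 48.5, beside 48.0 and 48.7 in vehicle mice 3 and 4, so the gap was not seen on that scale. The TMM factor of that library was 0.898 and those of vehicle mice 3 and 4 were 1.09 and 1.08.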

How the results depend on the processing

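The count of called genes was 0 at an adjusted p of 0.05 in edgeR on 8 libraries and in all 19 alternatives of tool, scaling, filter, block or libraries used, 0 at an adjusted p of 0.1 and 157 at an unadjusted p of 0.05. With the mouse number as a replicate block it was 0 called, with 724 genes at an unadjusted p under 0.05, and the block changed no other call. The SE without and with the block was 0.55 and 0.18 for Itga3, 0.33 and 0.12 for Dst, and 0.16 and 0.16 for Lama3. The estimate for Lama3 was -0.53 with the block and that for Lamb3 -0.33. Both were below 0 in 19 of 19 alternatives. For Lama3 they ran from -0.62 to -0.42 with 1 library left out and from -0.57 to -0.31 over the 9 other tools, scalings, filters and the block, lowest in size with limma-voom quality weights; for Lamb3 from -0.44 to -0.20 and from -0.39 to -0.11. For Plec the estimate kept its sign in 18 of 19, and for the other 6 members in 9 to 15 of 19. The alternatives refit the same 8 libraries or a part of them. Agreement in sign among them therefore settles no direction, also not for Lama3, Lamb3 or Plec. The median of the members lay between -0.20 and 0.13 with 1 library left out. Values per library are limited by 1 ear per mouse and 4 mice per group, and log2 fold changes had a median standard error of 0.26 over all genes. The median of all genes moved to 0.121 with total counts and to 0.115 or 0.134 on log2 FPKM with a pseudocount of 1 or 0.1, so estimates under those settings are to be read against it.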

Other observations

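Krt15, a keratin of basal cells and of the hair follicle bulge, differed far more between ears than the junction genes did; it was chosen after its values were seen. It had 15.3, 48.6, 514 and 499 TPM in vehicle mice 1 to 4 and 275, 188, 469 and 310.2 TPM in inhibitor mice 1 to 4. Vehicle mice 1 and 2, in which the TPM of Col7a1 and Col17a1 was lowest, also had the least Krt15. In CPM, Col17a1 was lowest in inhibitor mouse 4.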
